A study of Cricetulus griseus with 6 samples.

Results

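The genes of the oxidative phosphorylation machinery were followed across 6 microarrays of Chinese hamster ovary cells. The members are the genes whose symbol marks a subunit of respiratory complexes I to IV or of ATP synthase (complex V): symbols that start with Nduf, Uqcr, Cox4 to Cox8 or Atp5, together with Cyc1 and the Sdh genes, on transcript clusters annotated to exactly 1 symbol. This rule found 52 of the 14899 genes with 1 symbol. They comprise 31 subunits and 5 assembly factors of complex I, 3 subunits of complex II (Sdha, Sdhb and Sdhc), 1 subunit of complex IV (Ndufa4, which carries a complex I name), 11 subunits of ATP synthase and its inhibitor Atp5if1. No symbol that starts with Uqcr or with the Cox prefixes met the rule, so complex III and all of complex IV except Ndufa4 were not analysed here.

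Oxidative phosphorylation takes place in the inner mitochondrial membrane. Complexes I and II pass electrons from NADH and from succinate to coenzyme Q, complexes III and IV pass them on to oxygen, and the proton gradient that complexes I, III and IV build drives ATP synthase, a rotary enzyme with a ring of c subunits in the membrane and a catalytic F1 head. Nearly all of the subunits are encoded in the nucleus, made in the cytosol and imported, while a small core set is encoded by mitochondrial DNA. No gene of mitochondrial DNA was measured under the names searched.

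CHO-K1 is the parental wild type line, and CHO-K6 is a clone made to express human HER2, the receptor that trastuzumab and pertuzumab, both therapeutic antibodies, bind at different sites. All cells stood in medium with 1% FBS for 24 h and then in fresh medium with 10% FBS for 24 h, with no antibody in the untreated dishes and with 10 µg/mL of antibody in the treated ones. The labels do not say how this amount was divided in the combination. The 6 arrays were untreated CHO-K1, CHO-K1 with trastuzumab + pertuzumab (T + P), untreated CHO-K6, CHO-K6 with trastuzumab (T), CHO-K6 with pertuzumab (P) and CHO-K6 with T + P. There was 1 array per condition, so no value has a replicate error and no test between conditions was possible. Every difference given here is a difference between single arrays on the log2 scale, on which 0.58 is 1.5-fold and 0.32 is 25% higher or 20% lower. A difference of more than 0.32 in size is called a marked difference below. CHO-K1 with a single antibody and cells with a control antibody were not analysed here, and clone, HER2 and culture history cannot be told apart between the lines.

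The arrays were alike in their distribution of signal, with a median log2 signal of 5.89 to 5.91 over 29700 transcript clusters. The hamster Erbb2 cluster gave log2 signals of 8.50 and 8.64 in untreated and treated CHO-K1, and of 8.80 to 9.21 in the 4 CHO-K6 arrays. Whether its probes detect the human transcript is not known, so it checks the labels only in part. The labels call the cells epithelial. The 4 epithelial markers measured were dim, with log2 signals of 4.19 to 4.85 for Krt8, 4.40 to 4.99 for Krt18, 3.98 to 4.65 for Epcam and 5.86 to 6.49 for Cdh1. Of the 6 mesenchymal markers measured, Vim (13.19 to 13.30), Sparc (12.23 to 12.63) and Fn1 (11.39 to 11.54) were bright, Col3a1 was at 7.27 to 8.57, and Cdh2 (5.09 to 5.40) and Col1a1 (5.78 to 6.12) were as dim as the epithelial ones. Of the 5 markers of blood, endothelial and neural cells, Ptprc was at 3.83 to 4.0, Pecam1 at 4.59 to 5.09, Cdh5 at 5.64 to 6.16, Gfap at 5.99 to 6.25 and Cd68 at 6.71 to 7.10.

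Most members gave a bright signal. The mean log2 signal over the 6 arrays ran from 7.34 (Ndufaf5) to 12.55 (Atp5f1b) with a median of 10.25, against a median of 7.36 over all genes, and 48 of the 52 members (92.3%) had a mean of 8 or more, as did 42.6% of all genes. For this reason, most counts below stand beside their shares over all 14899 genes and over the 6341 genes whose mean reached 8, called bright genes here. Members varied little. The range of a member over the 6 arrays was 0.09 to 0.81 on the log2 scale with a median of 0.29, and 18 members ranged over less than 0.25.

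**Figure D1:**
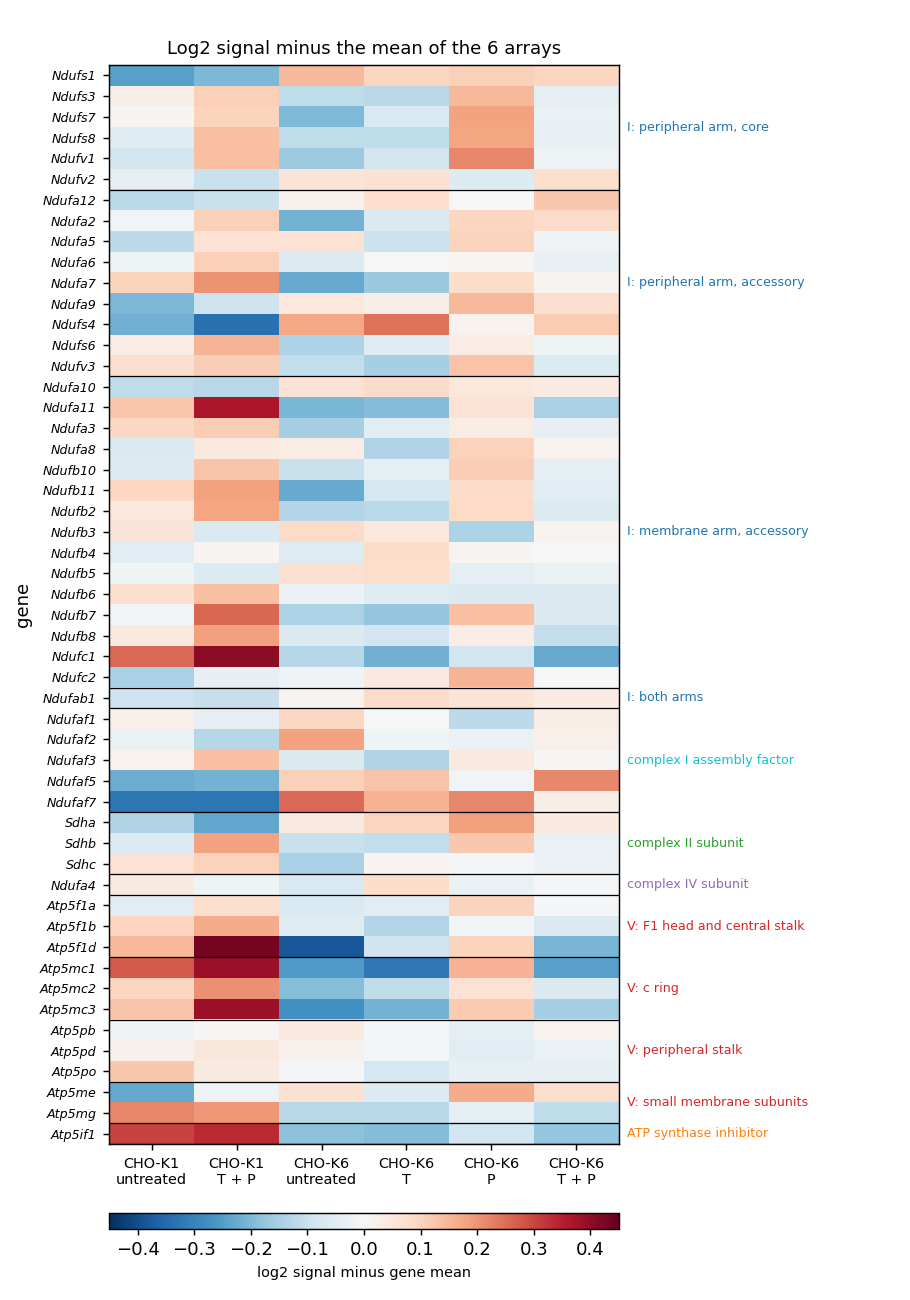
Each row is 1 of the 52 genes and each column 1 array (T, trastuzumab; P, pertuzumab), and the colour gives the log2 signal minus the gene's mean over the 6 arrays, blue for lower and red for higher. The c ring genes, Atp5f1d and Atp5if1 are bluer in most CHO-K6 columns than in the CHO-K1 columns, while Ndufs1, Ndufs4, Ndufaf5 and Ndufaf7 show the opposite order.

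The first comparison asks how CHO-K6 differs from its parent without antibody. In untreated CHO-K6, the largest differences toward lower signal were in ATP synthase, in the c ring genes Atp5mc1 and Atp5mc3, the central stalk gene Atp5f1d and the inhibitor Atp5if1, at 0.693 to 0.758 of the CHO-K1 level. The largest toward higher signal were in the complex I genes Ndufaf7, Ndufs1 and Ndufs4, at 1.31 to 1.49 times the CHO-K1 level. The members as a whole lay close to 0, with a median log2 difference of -0.07 beside -0.04 over all genes and -0.01 over bright genes. A lower signal in CHO-K6 was seen for 32 of 52 members (61.5%), a higher one for 19, and 1 was equal, and 55.6% of all genes and 50.0% of bright genes were lower. By more than 0.32, 4 members (7.69%) were higher, where the share was 12.6% over all genes and 14.8% over bright genes, and 8 members (15.4%) were lower, where it was 16.7% and 15.2%. The share of markedly lower members was near the background and that of markedly higher ones was below it, and no member reached 1.5-fold.

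By complex, the median line difference was -0.06 over the 31 subunits of complex I and -0.04 over the 3 subunits of complex II. Over the 11 subunits of ATP synthase it was -0.15, beside -0.04 over all genes and -0.01 over bright genes. Of these 11, 4 (36.4%) were markedly lower, where 16.7% of all genes and 15.2% of bright genes were. None was markedly higher, where 12.6% and 14.8% were. The 5 complex I assembly factors with an Ndufaf symbol had a median of 0.21.

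The c ring was the part of ATP synthase with the lowest median, -0.40. Its genes Atp5mc1, Atp5mc2 and Atp5mc3 encode the same mature c subunit, behind different import sequences. Atp5mc1 gave log2 signals of 10.35 and 10.46 in untreated and treated CHO-K1, and of 9.82, 9.75, 10.23 and 9.83 in CHO-K6 untreated and with T, P and T + P. Atp5mc3 was at 10.35 and 10.61 in CHO-K1 and at 9.95, 10.01, 10.34 and 10.07 in CHO-K6. Atp5mc2, the brightest c ring cluster, was at 11.97 and 12.08 in CHO-K1 and at 11.68, 11.76, 11.94 and 11.81 in CHO-K6. For each of the 3 genes, all 4 CHO-K6 arrays lay below both CHO-K1 arrays, although the P array came within 0.12 (Atp5mc1), 0.03 (Atp5mc2) and 0.01 (Atp5mc3) of the lower CHO-K1 array.

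Among the F1 and central stalk genes, Atp5f1d, the delta subunit that joins the central stalk to the c ring, differed most. Its log2 signals were 10.33 and 10.61 in CHO-K1 and 9.80, 10.09, 10.28 and 9.97 in CHO-K6, a line difference of -0.53 between the untreated arrays. The untreated CHO-K6 array held its lowest value of the 6. The alpha and beta subunits, which form the catalytic head, differed less. Atp5f1a (alpha) was at 10.22 and 10.35 in CHO-K1 and at 10.20, 10.22, 10.37 and 10.26 in CHO-K6, so the lines overlapped. Atp5f1b (beta) was at 12.65 and 12.72 in CHO-K1 and at 12.50, 12.42, 12.54 and 12.49 in CHO-K6, all 4 below both CHO-K1 arrays.

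The peripheral stalk, which holds the F1 head still against the turning ring, differed little. Its genes Atp5pb, Atp5pd and Atp5po had line differences of 0.06, 0.00 and -0.13, and Atp5pb stayed within 11.13 to 11.22 over all 6 arrays. Atp5pf of the same stalk shares its cluster with Mrpl39 and was left out by the rule. That cluster had a line difference of 0.33. The other ATP synthase clusters that share a symbol and were left out were lower in untreated CHO-K6. Their line differences were -1.22 (Atp5mpl), -0.35 (Atp5f1e) and -0.12 (Atp5mf). The small membrane subunits, which help ATP synthase form dimers, went in different directions. Atp5me was at 10.08 and 10.29 in CHO-K1 and at 10.38, 10.25, 10.48 and 10.39 in CHO-K6, with its lowest value in untreated CHO-K1. Atp5mg was at 11.81 and 11.79 in CHO-K1 and at 11.47, 11.47, 11.55 and 11.48 in CHO-K6, which left a gap of 0.24 between the lines.

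The inhibitor Atp5if1, which stops ATP synthase from running backwards when the membrane loses its potential, was at 10.21 and 10.24 in CHO-K1 and at 9.72, 9.71, 9.82 and 9.73 in CHO-K6. The lines were apart by at least 0.39, and within each line the arrays lay close together.

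**Figure D2:**
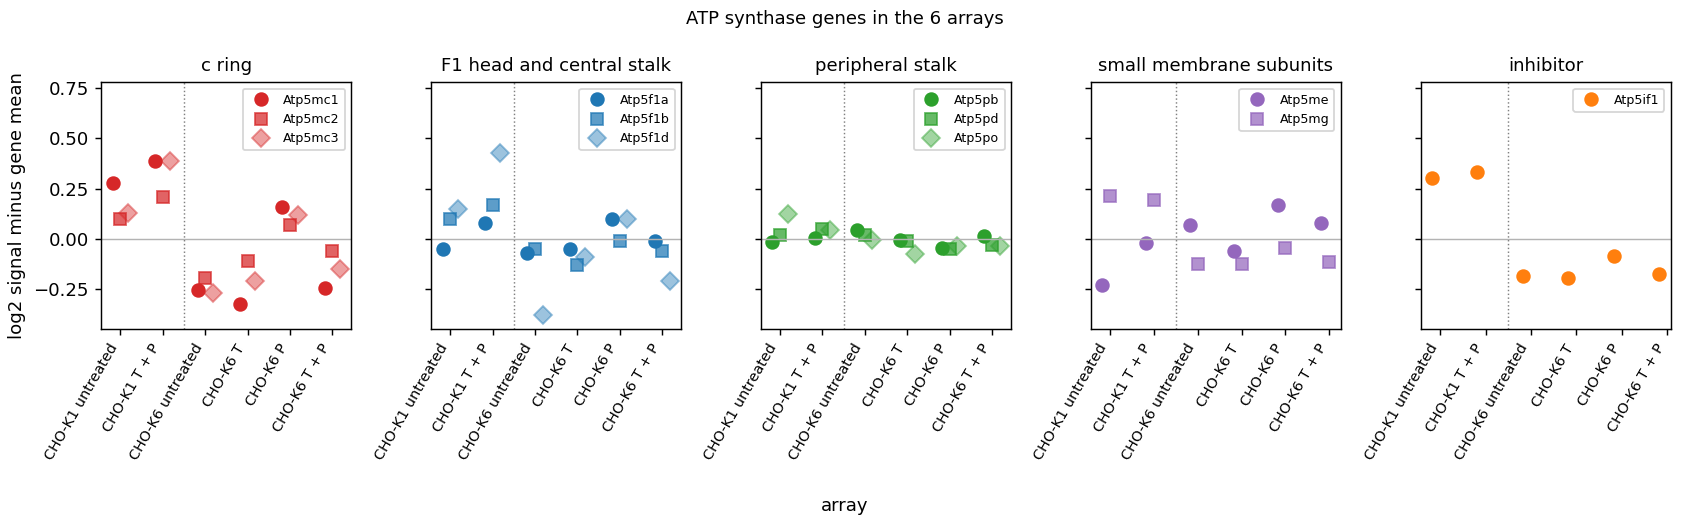
Points give the log2 signal of each ATP synthase gene minus its mean over the 6 arrays (y axis) in each array (x axis; T, trastuzumab; P, pertuzumab; the dotted line parts CHO-K1 from CHO-K6), with a panel for each part of the enzyme. The c ring genes, Atp5f1b, Atp5f1d, Atp5mg, Atp5po and Atp5if1 have all 4 CHO-K6 points below both CHO-K1 points. The peripheral stalk genes, Atp5po among them, stay near 0.

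Of the core subunits of the peripheral arm of complex I, which take electrons from NADH and lead them over iron-sulfur clusters to coenzyme Q, 6 were measured. Ndufs1, which carries several of these clusters, gave log2 signals of 9.63 and 9.67 in CHO-K1 and of 10.02, 9.97, 9.98 and 9.97 in CHO-K6. The lines did not overlap, with a gap of 0.30, and the 4 CHO-K6 arrays lay within 0.05 of each other. Ndufv2, also of the NADH input end, was at 11.37 and 11.31 in CHO-K1 and at 11.47, 11.48, 11.35 and 11.49 in CHO-K6.

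The other 4 core genes were slightly lower in untreated CHO-K6. Ndufv1, which binds NADH and flavin, was at 10.35 and 10.57 in CHO-K1 and at 10.27, 10.35, 10.65 and 10.41 in CHO-K6. Ndufs7, which holds the last iron-sulfur cluster before coenzyme Q, was at 11.56 and 11.65 in CHO-K1 and at 11.35, 11.48, 11.73 and 11.52 in CHO-K6. In both genes, the P array was the highest of the 6 and the untreated CHO-K6 array the lowest. Ndufs8 was at 11.06 and 11.25 in CHO-K1 and at 11.00, 11.00, 11.29 and 11.08 in CHO-K6, and Ndufs3 was at 9.53 and 9.61 in CHO-K1 and at 9.39, 9.38, 9.65 and 9.46 in CHO-K6.

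Of the accessory subunits, which surround and stabilise the core, Ndufs4 of the peripheral arm was the highest in CHO-K6 relative to CHO-K1. In humans its loss causes Leigh syndrome, a severe mitochondrial disease. Ndufs4 was at 9.08 and 8.96 in CHO-K1 and at 9.47, 9.54, 9.31 and 9.41 in CHO-K6, a line difference of 0.39 with no overlap. Ndufa7 of the same arm was at 10.45 and 10.55 in CHO-K1 and at 10.12, 10.18, 10.43 and 10.36 in CHO-K6, a line difference of -0.33. In the membrane arm, which pumps the protons, Ndufa11 was at 9.94 and 10.18 in CHO-K1 and at 9.61, 9.62, 9.88 and 9.67 in CHO-K6. Over the 15 accessory subunits of the membrane arm, the median line difference was -0.10, and over the 9 of the peripheral arm it was -0.04.

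Ndufc1, a small membrane arm subunit, was at 9.60 and 9.75 in CHO-K1 and at 9.22, 9.13, 9.26 and 9.12 in CHO-K6, a line difference of -0.38. Its second and dimmer cluster, with a mean log2 signal of 6.68, went the other way, at 0.18, so its direction depends on the cluster used.

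The Ndufaf assembly factors of complex I, which build the enzyme but are not part of it, were higher in untreated CHO-K6 for 4 of 5 genes. A higher signal was seen there for 42.9% of all genes and 48.5% of bright genes. Ndufaf7, which methylates a core subunit, was at 8.21 in both CHO-K1 arrays and at 8.79, 8.69, 8.75 and 8.56 in CHO-K6, with a line difference of 0.58 that was the highest of the 52. Ndufaf5, which hydroxylates Ndufs7, was at 7.12 and 7.13 in CHO-K1 and at 7.45, 7.47, 7.33 and 7.56 in CHO-K6. It is the dimmest member. Ndufaf1 and Ndufaf2 were at 8.0 and 7.96 in untreated CHO-K1 and at 8.07 and 8.17 in untreated CHO-K6, and both overlapped between the lines.

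Complex II oxidises succinate and is shared with the citric acid cycle. Sdha, the flavoprotein that oxidises succinate, was at 11.27 and 11.17 in CHO-K1 and at 11.45, 11.50, 11.59 and 11.45 in CHO-K6, higher in all 4 with a gap of 0.18. Sdhb, its iron-sulfur partner, was at 10.12 and 10.36 in CHO-K1 and at 10.08, 10.07, 10.30 and 10.15 in CHO-K6. Sdhc, a membrane anchor, was at 11.02 and 11.06 in CHO-K1 and at 10.81, 10.97, 10.95 and 10.93 in CHO-K6. The 3 genes of this complex thus showed 3 patterns, with Sdha higher, Sdhc lower and Sdhb overlapping. Ndufa4 of complex IV stayed within 12.02 to 12.17 in all 6 arrays.

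Over all arrays, the 4 of CHO-K6 lay above both of CHO-K1 for 10 members (19.2%) and below both for 16 (30.8%), and the lines overlapped for 26. The share above was 17.5% over all genes and 26.0% over bright genes, and the share below was 24.1% and 26.8%. ATP synthase had 7 of 11 subunits below and none above, complex I had 7 of 31 on each side, and the assembly factors had 2 of 5 above and none below. These arrays had different treatments and are not replicates of a line.

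The same question could be asked of a second pair, the arrays of both lines with T + P, which share no array with the untreated pair. Here the median line difference of the members was -0.13, beside -0.06 over all genes and -0.02 over bright genes. In CHO-K6, 34 of 52 members (65.4%) were lower, where 57.8% of all genes and 51.3% of bright genes were. By more than 0.32, 3 members were higher (Ndufs4 by 0.45, Ndufaf5 by 0.43 and Ndufaf7 by 0.35; 14.4% of all genes and 19.7% of bright genes) and 6 were lower (18.7% and 17.4%). Of these 6, Atp5f1d (-0.64), Atp5mc1 (-0.63) and Ndufc1 (-0.63) passed 1.5-fold, as 5.17% of all genes and 5.44% of bright genes did. The second Ndufc1 cluster differed by 0.03, and with the mean of both clusters the gene was at -0.30, no longer past 0.32. The others were Atp5mc3 (-0.54), Atp5if1 (-0.51) and Ndufa11 (-0.51).

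The 2 pairs gave the members much the same order. Across the 52 genes, Pearson's r between the differences was 0.911 and Spearman's rho was 0.885, and 48 (92.3%) had the same sign. Bright genes as a whole did the same, with r = 0.917 and 84.2% of equal sign, while over all genes r was 0.765. Genes of 1 array share its RNA and processing and are not independent, so these are descriptions.

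**Figure D3:**
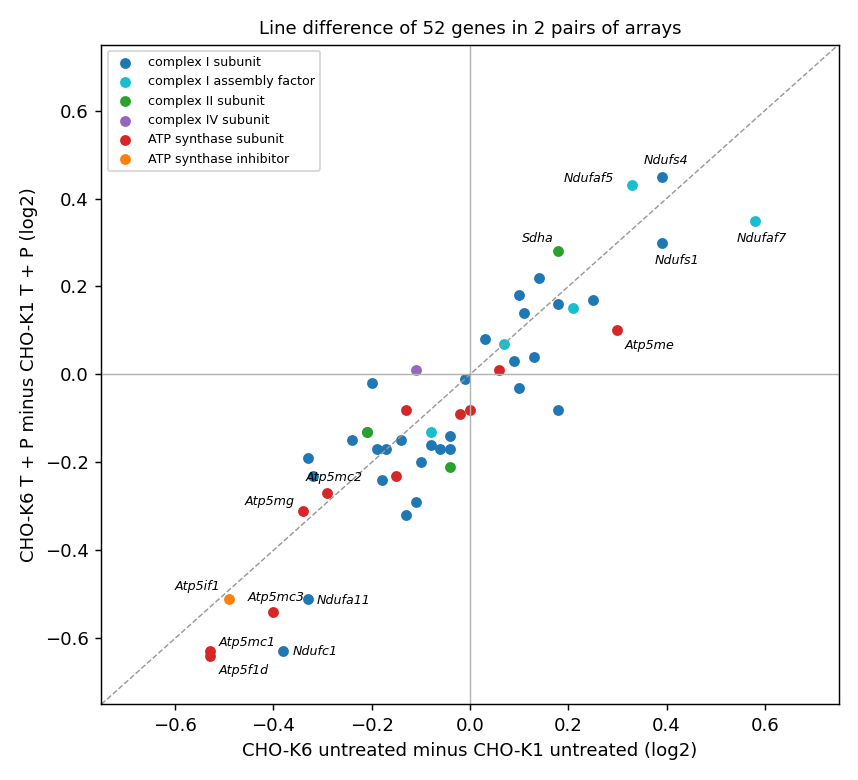
Each point is 1 of 52 genes, with the CHO-K6 minus CHO-K1 difference of log2 signals between the untreated arrays on the x axis and between the arrays with trastuzumab + pertuzumab (T + P) on the y axis; the dashed line marks equal values. Of the 52 points, 48 have the same sign on both axes, with Atp5f1d, Atp5mc1 and Ndufc1 lowest and Ndufs4, Ndufaf5 and Ndufaf7 at the upper right.

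The next comparisons ask what each antibody did in CHO-K6. They share the untreated CHO-K6 array with each other and with the line comparison, so an unusual value in that array would enter all of them. With trastuzumab, the members hardly differed from untreated cells. The median log2 difference was 0.01, equal to that over all genes and near the 0.02 over bright genes, and 27 of 52 members (51.9%) were higher, 23 lower and 2 equal, beside 51.8% higher over all genes and 55.1% over bright genes. No member differed markedly in either direction. Over all genes, 3.06% were that much higher and 3.19% lower, and over bright genes 0.647% and 0.284%.

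The highest differences with trastuzumab were 0.29 for Atp5f1d and 0.16 for Sdhc, followed by Ndufa2, Ndufa4 and Ndufb11 at 0.15, and the lowest were -0.20 for Ndufaf2, -0.17 for the membrane arm gene Ndufa8 and -0.16 for the peripheral arm gene Ndufa5. Ndufaf2 was at 8.17 in untreated CHO-K6 and between 7.86 and 8.01 in the other 5 arrays. Ndufa8 was at 10.87 and 10.98 in CHO-K1 and at 10.97, 10.80, 11.04 and 10.95 in CHO-K6, and Ndufa5 was at 8.96 and 9.14 in CHO-K1 and at 9.14, 8.98, 9.18 and 9.06 in CHO-K6. Both had their lowest CHO-K6 value with T and overlapped between the lines. With the differences centred on the bright genes, 20 members in place of 27 were above 0.

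With pertuzumab, the share of members markedly higher than in untreated CHO-K6 was near that of bright genes. The share markedly lower was below it. The 5 members higher by more than 0.32 were Atp5f1d (0.48), Atp5mc1 (0.41), Atp5mc3 (0.39), Ndufs7 (0.38) and Ndufv1 (0.38), which is 9.62% of the 52, beside 11.0% of all genes and 9.56% of bright genes. No member was that much lower, where 8.26% of all genes and 8.78% of bright genes were. The median over the members was 0.10, beside 0.06 over all genes and over bright genes, and 37 members (71.2%) were higher and 15 lower, beside 58.6% higher in both backgrounds. Centred on the bright genes, the median was 0.04, with 32 members above 0 and 3 markedly higher. Against the average of the CHO-K6 arrays with T and with T + P in place of the untreated one, Atp5mc1 stayed past 0.32, at 0.44, while Atp5mc3 was at 0.30, Ndufv1 at 0.27, Atp5f1d at 0.25 and Ndufs7 at 0.23.

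The parts of the complexes differed under pertuzumab. The c ring had a median difference of 0.39. The core of the peripheral arm of complex I was at 0.275, with 4 of 6 genes above 0 and Ndufs1 (-0.04) and Ndufv2 (-0.12) below. Complex I as a whole and ATP synthase as a whole were at 0.10 and complex II at 0.14. In contrast, the peripheral stalk of ATP synthase was at -0.07, with all 3 genes below 0, and the 5 Ndufaf assembly factors of complex I were at -0.12. The lowest members were Ndufb3, a membrane arm subunit, at -0.23, and the assembly factors Ndufaf1 and Ndufaf2, both at -0.21. Ndufb3 was at 10.52 and 10.40 in CHO-K1 and at 10.55, 10.51, 10.32 and 10.48 in CHO-K6, lowest with P. Ndufaf1 was at 8.07 in untreated CHO-K6 and at 7.86 with P, and between 7.94 and 8.01 in the other 4 arrays. For Atp5f1a, the brighter cluster had a difference of 0.17 and the second cluster 0.36.

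With T + P, CHO-K6 was again close to its untreated state. The median difference was 0.03, beside 0.01 in both backgrounds, and 34 members (65.4%) were higher, 17 lower and 1 equal, beside 52.0% higher over all genes and 52.1% over bright genes. No member differed by more than 0.32, where 3.34% of all genes were higher and 3.09% lower, and 0.237% and 0.221% of bright genes. The highest were Ndufa2 (0.30) and Ndufa7 (0.24), both of the peripheral arm, and Ndufb11 (0.18) of the membrane arm. Ndufa2 was at 7.84 in untreated CHO-K6 and at 7.99, 8.15 and 8.14 with T, P and T + P, and it was at 8.04 and 8.16 in CHO-K1. Ndufb11 was at 11.70 and 11.79 in CHO-K1 and at 11.38, 11.53, 11.69 and 11.56 in CHO-K6. For both genes, untreated CHO-K6 gave the lowest of the 6 values. The lowest were Ndufaf7 (-0.23) and Ndufaf2 (-0.16), and the c ring gene Atp5mc1, which was 0.41 higher with P alone, was 0.01 higher here.

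**Figure D4:**
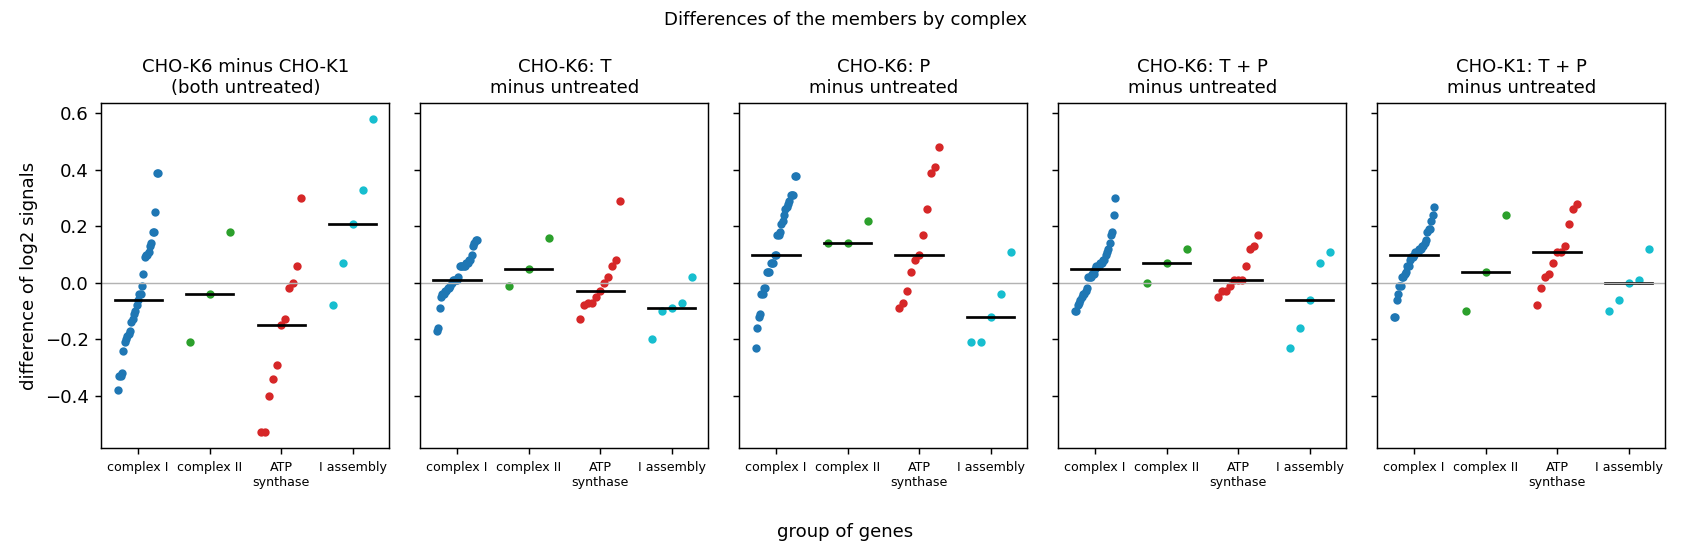
Each panel is a comparison, each point a gene and each bar the median of its group (complex I, complex II, ATP synthase, the 5 Ndufaf assembly factors of complex I; x axis), with the difference of log2 signals on the y axis (T, trastuzumab; P, pertuzumab). The ATP synthase median is -0.15 in the line comparison and 0.10 with P, and the Ndufaf genes have the opposite signs, 0.21 and -0.12. Both comparisons use the untreated CHO-K6 array, on opposite sides, so an unusual value there would give opposite signs in them.

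The pertuzumab and trastuzumab arrays of CHO-K6 were also set against each other, without the untreated array. At the same dose and time, the median member was 0.115 higher with P than with T, beside 0.05 over all genes and 0.04 over bright genes, and 36 of 52 (69.2%) were higher, where 58.0% of all genes and 55.7% of bright genes were. Of the marked differences, Atp5mc1 was higher by 0.48 and Atp5mc3 by 0.33, where 9.31% of all genes and 6.48% of bright genes were higher, and no member was lower, where 8.13% and 9.00% were. Atp5f1d, which led the comparison with untreated cells, was 0.19 higher. Ndufb7 of the membrane arm followed the c ring genes, at 0.31, with log2 signals of 8.64 and 8.91 in CHO-K1 and of 8.51, 8.48, 8.79 and 8.59 in CHO-K6. The lowest were Ndufs4 (-0.23), Ndufb3 (-0.19) and Ndufaf5 (-0.14).

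The last comparison gives the level seen with antibody in CHO-K1, which was not made to express HER2. With T + P, the median member of CHO-K1 was 0.085 above the untreated array, beside 0.02 over all genes and 0.01 over bright genes. Of the 52 members, 39 (75.0%) were higher, 12 lower and 1 equal, where 53.1% of all genes and 51.9% of bright genes were higher. None passed 0.32, whereas 6.39% of all genes and 1.51% of bright genes did upward and 6.50% and 5.24% downward. The highest were Atp5f1d (0.28), Ndufb7 (0.27) and Atp5mc3 (0.26), and the lowest were Ndufs4 and Ndufb3 (both -0.12). The median was 0.10 over complex I, 0.04 over complex II and 0.11 over ATP synthase.

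The differences of pertuzumab in CHO-K6 and of T + P in CHO-K1, which share no array, had a similar order over the members. Pearson's r was 0.733 and Spearman's rho 0.697 over the 52 genes, with 41 (78.8%) of the same sign. The bright genes gave r = 0.776 with 78.9% of the same sign, and all genes r = 0.371 with 65.2%. With the P minus T difference in place of P minus untreated, r was 0.75 over the members and 0.799 over bright genes. Both values of r were lower over the members than over bright genes.

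**Figure D5:**
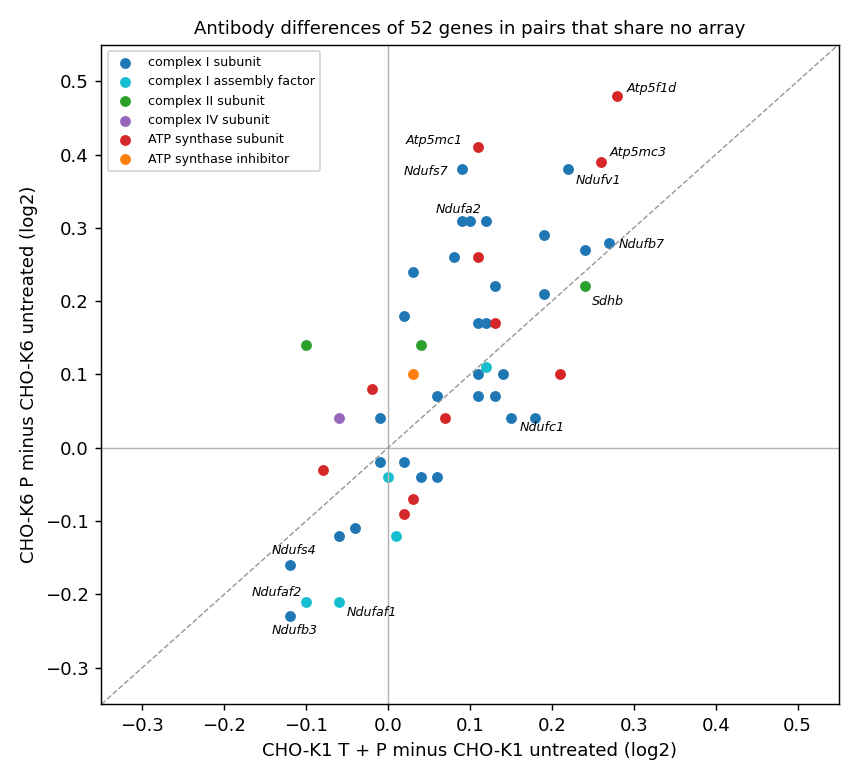
Each point is 1 of 52 genes, with the difference of log2 signals between CHO-K1 with trastuzumab + pertuzumab (T + P) and untreated CHO-K1 on the x axis and between CHO-K6 with pertuzumab (P) and untreated CHO-K6 on the y axis; the dashed line marks equal values. Atp5f1d and Atp5mc3 are high on both axes and Ndufb3 is low on both, and 41 of 52 points have the same sign.

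Set side by side in each array, the complexes had their highest medians in treated CHO-K1 or in CHO-K6 with P. The median over complex I of the log2 signal minus the gene's mean was -0.02 and 0.107 in untreated and treated CHO-K1, and -0.067, -0.058, 0.082 and -0.023 in CHO-K6 untreated and with T, P and T + P. For ATP synthase, the same medians were 0.097 and 0.167 in CHO-K1 and -0.07, -0.09, 0.067 and -0.063 in CHO-K6, and for the c ring they were 0.128 and 0.387, then -0.253, -0.212, 0.118 and -0.152. For complex II, they were -0.06 and 0.103 in CHO-K1 and -0.10, 0.013, 0.12 and -0.027 in CHO-K6. The 5 Ndufaf assembly factors had another order, with their lowest median, -0.128, in treated CHO-K1 and their highest, 0.107, in untreated CHO-K6. Over all genes, the lowest of these medians was -0.027 in untreated CHO-K6 and the highest 0.04 in treated CHO-K1. Over bright genes, they were -0.017 in untreated CHO-K6 and 0.022 in CHO-K6 with P. The highest medians of both backgrounds thus fell in the same arrays as those of the complexes.

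Other genes of mitochondrial respiration were taken from fixed lists. The proteins of the mitochondrial ribosome, which translates the subunits encoded by mitochondrial DNA, were measured for 61 genes. Their median line difference was -0.05, and it was 0.12 with pertuzumab in CHO-K6, where 48 of 61 (78.7%) were higher, beside 58.6% in both backgrounds. Of these, 7 were markedly higher, a share near the 11.0% of all genes and 9.56% of bright genes. None of the 61 was markedly lower, where 8.26% of all genes and 8.78% of bright genes were. With T + P in CHO-K1 the median was 0.09 and 47 of 61 were higher, beside 53.1% of all genes and 51.9% of bright genes. Mrpl19 had the largest line difference, 1.74, with log2 signals of 8.41 and 8.61 in CHO-K1 and of 10.15, 10.11, 10.15 and 10.05 in CHO-K6. The enzymes of the citric acid cycle and of pyruvate entry, with 17 of 21 measured, had medians of 0.01 between the lines and 0.15 with P. Pc, the pyruvate carboxylase that refills the cycle, was 0.68 higher with P, and Sucla2, a succinyl-CoA synthetase subunit, differed by -0.54, at 9.72 in untreated CHO-K6 and 9.18 with P.

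The regulators and machinery of mitochondrial gene expression, with 17 of 23 measured, had medians of 0.00 between the lines and -0.03 with P. Among them, Ssbp1, which binds single-stranded mitochondrial DNA, was at 9.29 and 9.11 in CHO-K1 and at 9.82, 9.49, 9.27 and 9.40 in CHO-K6. The list of cytochrome c and coenzyme Q genes had 11 of 15 measured, all of them of coenzyme Q, with medians of 0.00 and 0.11. Genes that adjust respiration to oxygen and substrate, with 9 of 11 measured, had medians of -0.07 and -0.04, and Pdk1, a kinase that turns off pyruvate dehydrogenase, had a line difference of -0.67. The uncouplers, side dehydrogenases and peroxide enzymes, with 10 of 13 measured, had medians of 0.03 and 0.16, with Sqor (0.89) and Dhodh (-0.74), both of which feed electrons to coenzyme Q, at the ends of the line comparison.

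Further assembly factors lay outside the symbol rule. For complex I, 7 of 11 were measured, with medians of -0.13 between the lines, 0.11 with P in CHO-K6 and 0.12 with T + P in CHO-K1. The first 2 of these medians, which share the untreated CHO-K6 array, had the signs of the complex I subunits. These were opposite to the signs of the 5 Ndufaf genes. Ecsit, which acts with Ndufaf1, was at 9.27 and 9.57 in CHO-K1 and at 8.58, 8.75, 9.01 and 8.89 in CHO-K6, while Ndufaf1 itself overlapped between the lines. For complex II, 4 of 4 were measured, with medians of -0.06 and 0.05, and for ATP synthase 2 of 3, with medians of -0.025 and -0.05. For complexes III and IV, only Ttc19 (line difference 0.34), Cmc1 (0.26) and Cmc2 (-0.38) were measured.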

How the data were processed

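The authors deposited log2 signals per transcript cluster of the Affymetrix CHO Gene 2.0 ST array, made with the Affymetrix Transcriptome Analysis Console and, per the labels, Affymetrix Expression Console. The normalization is not given in the sources used here, so it cannot be said how far it pulled the arrays together. The log2 signals were used as deposited. The main table holds 29700 clusters, of which 16481 have 1 gene symbol in the platform annotation, 793 several and 12426 none. The series matrix table holds 30934 and differs by at most 0.005 on shared clusters. For each gene the cluster with the highest mean was used, a choice that concerned 3 members with 2 clusters each. Another 5 clusters that pair a member's name with another symbol were left out. Their untreated line differences were -1.22 for the Atp5mpl cluster, -0.35 for Atp5f1e, -0.28 for Ndufa13, -0.12 for Atp5mf and 0.33 for Atp5pf. The first of these was larger in size than that of any member. Positions and sequences are not given, since no genome of the array's build was used here.

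Differences, medians and counts were computed in Python 3.11.15 with NumPy 2.4.6, pandas 2.3.3 and SciPy 1.17.1. With 1 array per condition, no p-value or SD was computed, and the number of arrays limits the precision. The calculations were tested on simulated data. Named were the 3 highest and 3 lowest members per comparison whose mean signal reached 6 (ties at the end left out), all past 1.5-fold, the core and catalytic subunits, and at most 3 genes per list. Further members were named where a part of a complex is described. The members and the gene lists were chosen with earlier results of these data known. Alternatives were quantile normalization, centring on bright genes, the series matrix table, the mean of a gene's clusters, a signal minimum, subunits alone, means, another reference and fewer arrays.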

Additional observations from a re-analysis of the deposited data

Results flagged for a closer look

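The antibody combination went in opposite directions in the 2 lines for Ndufc1, the small membrane arm subunit of complex I. With trastuzumab + pertuzumab, its log2 signal was 0.15 higher in CHO-K1 and 0.10 lower in CHO-K6 (a difference of -0.10) than in the untreated array of the same line. With 1 array per condition, this difference was not tested. The second and dimmer Ndufc1 cluster differed by 0.08 in CHO-K1 and -0.07 in CHO-K6, less than 0.1 in size in each line. Of the 52 members, 13 had opposite signs in the 2 lines, and Ndufc1 was the 1 with a difference of at least 0.1 in both. The matching shares over all genes and bright genes were not counted, so these counts have no background beside them.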

How the results depend on the processing

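The summary values were medians by comparison and complex, and counts of non-overlapping members. Of their alternatives, 154 stayed within the tolerance of 0.05 on the log2 scale or 1.5 times a count, and 4 moved. No median of at least 0.05 in size changed sign, although smaller ones did. Among single members, none that differed by more than 0.32 changed sign. Against the average of CHO-K6 arrays given another antibody, the member median was -0.055 for trastuzumab (0.01 against untreated) and -0.035 for trastuzumab + pertuzumab (0.03), so these have no settled direction. Centred on bright genes, the pertuzumab median was 0.04 (0.10 uncentred). With the mean in place of the median, complex II in treated CHO-K1 was at 0.0161 (0.103 with the median). The causes were not tested. The count of members past 0.32 with pertuzumab was 3 after centring and 1 against the other treated arrays (5 against untreated), and against trastuzumab it was 1 after centring (2 before). Averaging its clusters, Ndufc1 had a line difference of -0.10. Without the pertuzumab array, 23 members in place of 16 were lower in all CHO-K6 arrays. Leaving out an array can only keep or raise this count, and its share over all genes was not counted. No paired analysis was possible because each condition has 1 array, and leaving out a replicate would leave none.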
